A study of Tursiops truncatus with 8 samples.

Results

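Of the 13 genes named on the array, 5 belong to the lung surfactant system: SFTPA1, SFTPB and SFTPC (surfactant proteins A1, B and C), AbcA3 (a lipid transporter) and NKX2-1 (a transcription factor). They were chosen by name alone, as every probe whose name, without its final number, is one of these symbols. This gave 7 of the 20 gene-named probes, among 24418 probes in all: SFTPA1-2, SFTPB-1, SFTPC-1, AbcA3-1, AbcA3-2, AbcA3-3 and NKX2-1-2. Each has 2 spots on every array, which are called spot 1 and spot 2. The question asked of them was which of these lung-lineage genes are detected in cultured dolphin skin, and how their signal differed between cultures.

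The tissue was skin of a wild female bottlenose dolphin (Tursiops truncatus) from the Tuscan shore, cut from a stranded animal whose age is not given in the sources used here. Slices about 2 mm thick, with epidermis and dermis, were each kept for 24 h at 24 to 28 °C in culture medium, and 1 Cy3 array was made per condition. The 8 conditions were medium alone, methanol (the vehicle of perfluorooctanoic acid, PFOA), 2 PFOA cultures, ethanol (the vehicle of bisphenol A, BPA), and 3 BPA cultures titled 0.1, 1 and 100. The titles of the PFOA samples (1 and 0.1) contradict their descriptions (0.1 and 1), so no dose order is drawn for PFOA and each of its arrays goes by its title, PFOA titled 1 or PFOA titled 0.1. Titles give mg/ml, whereas the treatment protocol gives 0.1 and 1 µg/ml and no dose of 100. Doses therefore serve here as names, except in the BPA slopes, which take the titles as numbers. Nothing says that the slices came from separate animals, so no spread below can be taken as one between animals, and each may be technical. An SD between spots compares only the 2 spots of the same array. In whole slices, fewer cells of a type and less RNA per cell cannot be told apart.

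Surfactant is the film of lipid and protein that keeps the air spaces of the lung from collapsing. Alveolar type 2 cells make it: ABCA3 loads phospholipid into their lamellar bodies, the small hydrophobic proteins B and C are stored there and spread the lipid at the air surface, and the collectin protein A binds microbes and lipid. NKX2-1, also called TTF-1, switches on the surfactant protein genes in lung and has a separate role in the thyroid. SFTPC and SFTPA1 are regarded as markers of the lung, whereas ABCA3 is transcribed at lower levels in many tissues, and lamellar bodies of another kind deliver lipid to the outer epidermis.

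No skin-defining marker could be checked, since none of the 9 epidermal, 5 dermal fibroblast or 4 melanocyte markers listed for this work is named among the probes. Across arrays, 73.0% to 79.4% of spots were well above background, a call of the scanner software, and no member spot was saturated or marked as an outlier. The 75th percentile of signal, used to scale each array, lay between 387 and 704. It was lowest on PFOA titled 0.1 (400) and BPA 100 (387), the arrays with the highest median variation between replicate spots in the file headers (21.4% and 12.3%) and both in position 4 of their slide. Medium, methanol and PFOA shared slide 1, and ethanol and BPA shared slide 2.

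SFTPC and AbcA3 gave signal in skin on all 8 arrays, SFTPA1 and SFTPB on none, and NKX2-1 lay between, near the limit of detection. Of the 112 member spots (14 on each array), 52 were well above background, 46.4%. SFTPC-1 and AbcA3-1 passed with both spots on every array. Over all probes, 69.9% passed with at least 1 spot on all 8 arrays and 15.1% on none, so both outcomes are common on this array. AbcA3-2 passed on 6 arrays, AbcA3-3 on 4 and NKX2-1-2 on 4 by at least 1 spot, and on 3, 1 and 2 arrays by both spots.

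**Figure D1:**
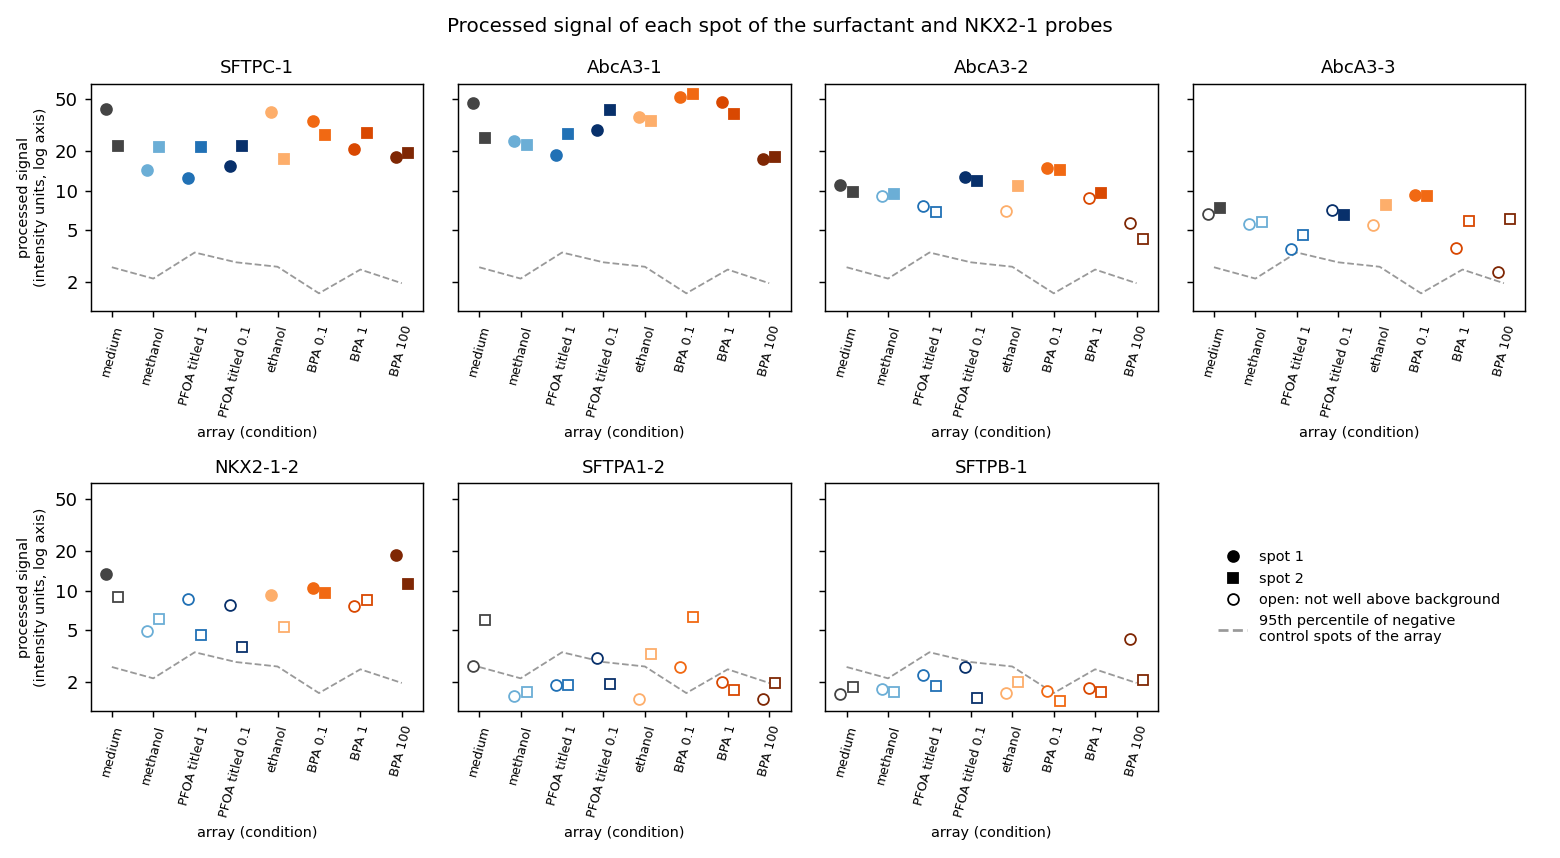
Processed signal (intensity units, log axis, not scaled between arrays) of each spot of the 7 probes on the 8 arrays, with filled symbols for spots well above background and a dashed line at the 95th percentile of each array's negative control spots. All 16 spots of SFTPC-1 and of AbcA3-1 are filled, and none of SFTPA1-2 or SFTPB-1 is.

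SFTPC, a surfactant protein made by alveolar type 2 cells, was well above background by both spots in every culture. The signal of its spots 1 and 2 was 42.0 and 22.0 on medium, 14.3 and 21.7 on methanol, 12.5 and 21.7 on PFOA titled 1, and 15.6 and 22.0 on PFOA titled 0.1. On the second slide it was 39.6 and 17.5 on ethanol, 34.0 and 26.5 on BPA 0.1, 20.9 and 27.7 on BPA 1, and 18.1 and 19.5 on BPA 100. Each of these spots read above at least 151 of the 153 negative control spots of its own array, whose 95th percentile was 1.65 to 3.38. They all lay below the median signal of their array, which was 64.6 on BPA 100, the lowest, and 114 on methanol, the highest. Signal of the SFTPC probe was thus present in every culture, exposed or not, at a level that differed between its own spots by up to 2.26-fold. SFTPC has 1 probe, whose sequence is not given in the sources used here, so its specificity was not checked.

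AbcA3 was measured by 3 probes, which differed in how often they were detected. For AbcA3-1 the spot signals were 46.8 and 25.5 on medium, 24.1 and 22.3 on methanol, 18.6 and 27.0 on PFOA titled 1, and 29.3 and 41.4 on PFOA titled 0.1. They were 36.3 and 34.4 on ethanol, 52.0 and 54.8 on BPA 0.1, 47.4 and 38.5 on BPA 1, and 17.5 and 18.3 on BPA 100. All 16 were well above background, and the highest unscaled values were on BPA 0.1 and the lowest on BPA 100. AbcA3-2 gave 4.30 to 14.9 with 9 of its 16 spots well above background, and AbcA3-3 gave 2.39 to 9.24 with 5 of 16. AbcA3-2 and AbcA3-3 both passed with 2 spots on BPA 0.1 and with none on PFOA titled 1 and BPA 100.

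NKX2-1, the factor that drives surfactant genes in lung, was at the edge of detection. Spots 1 and 2 of NKX2-1-2 gave 13.3 and 8.98 on medium, 4.94 and 6.10 on methanol, 8.67 and 4.54 on PFOA titled 1, and 7.80 and 3.73 on PFOA titled 0.1. They gave 9.25 and 5.24 on ethanol, 10.5 and 9.51 on BPA 0.1, 7.66 and 8.53 on BPA 1, and 18.8 and 11.2 on BPA 100. Both spots were well above background on BPA 0.1 and BPA 100, 1 spot on medium and on ethanol, and none on methanol, BPA 1 or either PFOA array. All 16 spots lay above the 95th percentile of the negative controls of their array, so the probe read more than that background on arrays where it failed the stricter call.

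SFTPA1, the collectin of surfactant, did not pass on any array. Its 16 spots gave 1.47 to 6.30, with a median of 1.94, and 8 of them were not distinguishable from background by the scanner software's weaker call (positive and significant). The highest were spot 2 on BPA 0.1 (6.30) and on medium (5.92), where spot 1 gave 2.59 and 2.65. The spots of this probe therefore disagreed on the arrays where it read highest, and no fold is given for it.

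SFTPB, the protein that organises surfactant lipid, did not pass on any array either. Its 16 spots gave 1.44 to 4.27, with a median of 1.79, and 13 did not pass the weaker call. In those 13 the processed signal was 1.00 times the spot's own error estimate, so it carried no value above that error. The only array on which both spots passed the weaker call was BPA 100, with 4.27 and 2.09, and neither was well above background there. SFTPB was not detectable at this sensitivity, which does not show that it is absent.

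The number of member spots well above background differed between arrays as well as between genes. BPA 0.1 had 10 of 14 member spots well above background and PFOA titled 1 had 4 of 14, the most and the fewest. BPA 0.1 also had the lowest 95th percentile of negative controls (1.65) and the largest share of all spots well above background (79.4%), and PFOA titled 1 had the highest 95th percentile (3.38) with 73.8% of spots. The arrays between did not keep this order. Methanol, with a 95th percentile of 2.13 and 76.5% of spots, had 5 of 14 member spots. PFOA titled 0.1, with 2.84 and 73.0%, had 7 of 14. The part of these array differences in the calls for AbcA3-2, AbcA3-3 and NKX2-1 was not tested.

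Levels were then compared after scaling, as log2 of the signal minus log2 of the array's 75th percentile, averaged over the 2 spots. SFTPC-1 ranged over 0.97 log2 units (1.96-fold) among the 8 arrays. From the top its order was medium, BPA 100, PFOA titled 0.1, BPA 1, ethanol, BPA 0.1, methanol and PFOA titled 1. The pooled SD between its 2 spots was 0.49, and 1 of the 7 steps between neighbours in that order exceeded it: BPA 0.1 (-4.55) to methanol (-5.30). The other 6 steps were smaller than the spread between spots.

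AbcA3-1 ranged over 1.39 log2 units, from -3.52 on PFOA titled 0.1 to -4.91 on methanol, with a pooled SD between spots of 0.30. In order the arrays were PFOA titled 0.1, BPA 1, BPA 0.1, ethanol, medium, BPA 100, PFOA titled 1 and methanol, and 2 of the 7 steps exceeded that SD. After scaling, PFOA titled 0.1 was the highest array for 3 of 3 AbcA3 probes. AbcA3-2 was next on BPA 0.1, a step of 0.57 log2 units against an SD between spots of 0.20. Unscaled, the geometric mean signal of AbcA3-1, AbcA3-2 and AbcA3-3 was highest on BPA 0.1, at 53.4, 14.7 and 9.17. On PFOA titled 0.1 it was 34.8, 12.4 and 6.85. On their lowest array after scaling, PFOA titled 1, neither AbcA3-2 nor AbcA3-3 was well above background, so no range is given for them.

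For NKX2-1-2 the 4 arrays with a spot well above background were, from the top, BPA 100 (-4.74), medium (-5.83), BPA 0.1 (-6.14) and ethanol (-6.41), and the other 4 have no order. BPA 100 stood 1.09 above medium, more than the pooled SD between spots of 0.48, and the other neighbours in this order differed by less than that SD. Methanol and PFOA titled 1, which lay side by side on slide 1, gave the 2 lowest values for SFTPC-1, AbcA3-1, AbcA3-3 and NKX2-1-2, but not for AbcA3-2. For AbcA3-3 and NKX2-1-2 neither of those values was well above background. How many of all probes were also lowest on these 2 arrays was not counted, so nothing particular to the members is read from this.

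**Figure D2:**
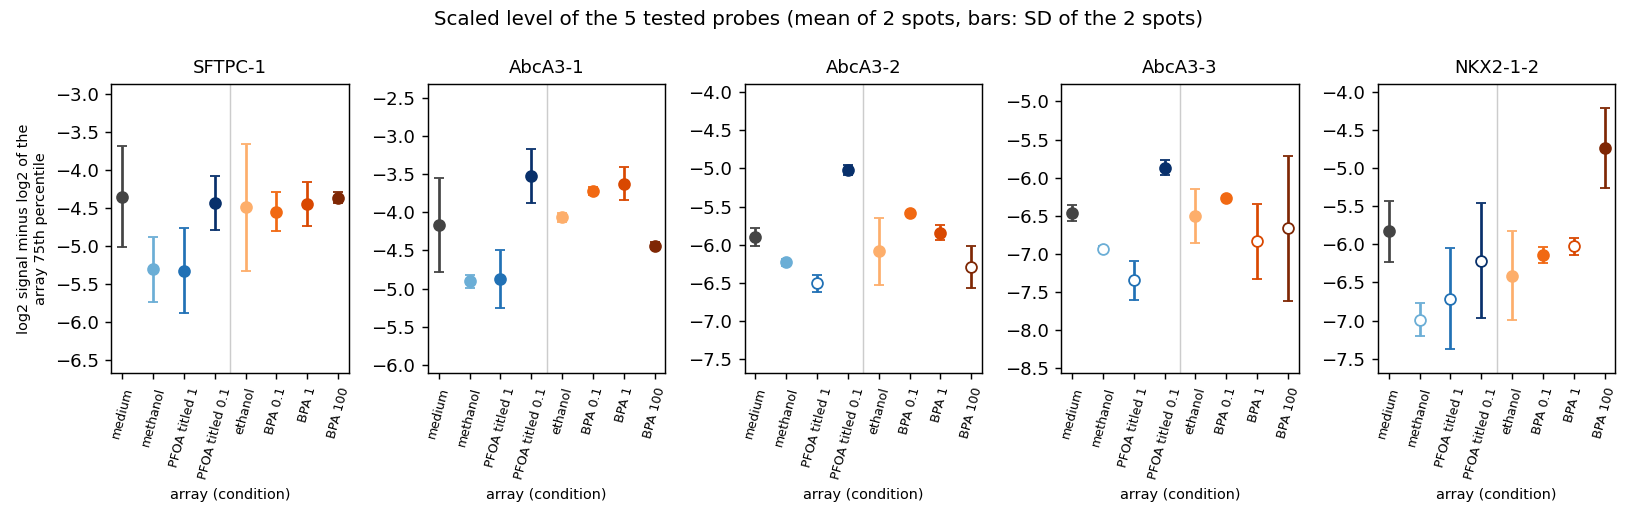
Scaled level (log2 signal minus log2 of the array 75th percentile; all panels span the same range, each around its own centre) of the 5 tested probes on the 8 arrays, as the mean of 2 spots with their SD, open where neither spot was well above background; the grey line divides the slides. After scaling, NKX2-1-2 is highest on BPA 100, and the AbcA3 probes are highest on PFOA titled 0.1. Unscaled, the AbcA3 probes are highest on BPA 0.1.

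Exposed arrays were set against their vehicles and against medium, and the vehicles against medium, 12 pairs in all. Where the dimmer array of a pair was not well above background, the fold is a bound ("at least"). It is taken against the array's dimmest probe with every spot well above background, or against the member's own value where that is higher. Over the 7 probes and 12 pairs, 56 of 84 folds could be formed, 41 of them measured on both arrays and 15 as bounds. The other 28 include all 24 of SFTPA1-2 and SFTPB-1. Among the 56, 4 were at least 2-fold, 4 higher and 0 lower. Each fold sets 1 array against 1 with no replicate, and no p-value is given with it. The limma tests further on borrow their spread from the BPA and PFOA arrays.

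Over all compared features, the share at least 2-fold apart in either direction was 0.807%, 1.86% and 4.11% for BPA 0.1, 1 and 100 over ethanol, and 1.18% and 6.92% for PFOA titled 1 and PFOA titled 0.1 over methanol. Over medium it was 1.41%, 0.858% and 2.53% for BPA 0.1, 1 and 100, and 1.42% and 4.71% for PFOA titled 1 and PFOA titled 0.1. For the vehicles over medium it was 1.99% for methanol and 1.82% for ethanol. The member folds of at least 2-fold came from the pairs PFOA titled 0.1 over methanol, BPA 100 over ethanol and BPA 100 over medium, 3 of the 4 pairs with the largest of these shares.

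NKX2-1-2 gave 2 of the 4. On BPA 100 it was 3.19-fold of ethanol and 3.11-fold by spot 1 alone, where 3.29% of 18737 compared features were at least 2-fold higher. It was 2.13-fold of medium and 2.27-fold by spot 1 alone, against 1.63% of 19140 features. Spot 2 was not well above background on ethanol or medium. BPA 100 and medium lay on different slides, so slide and exposure cannot be told apart in any comparison of BPA with medium. BPA 100 was the dimmest array, so scaling multiplied its ratio to ethanol by 1.53 and to medium by 1.60. Without scaling the same signals were 2.09-fold of ethanol and 1.33-fold of medium. At BPA 0.1 the probe was 1.21-fold of ethanol by the mean and 0.96-fold by spot 1. At BPA 1 the brighter array of the pair was not well above background and no fold is given.

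AbcA3 gave the other 2, both on PFOA titled 0.1. AbcA3-1 was 2.62-fold of methanol there (2.12-fold and 3.23-fold by spot) and AbcA3-2 was 2.32-fold (2.20-fold by spot 2, spot 1 on methanol not being well above background), where 4.22% of 19039 compared features were at least 2-fold higher. AbcA3-3 was at least 1.51-fold higher, its methanol value being at background. Scaling multiplied this pair by 1.74, and the unscaled ratios were 1.50-fold and 1.33-fold. Against medium the same array gave 1.57-fold for AbcA3-1, whose spots disagreed (0.97-fold and 2.52-fold), and 1.85-fold for AbcA3-2 (1.80-fold and 1.90-fold). On PFOA titled 1, the other culture with this compound, AbcA3-1 was 1.02-fold of methanol, 0.82-fold by spot 1 and 1.28-fold by spot 2. PFOA titled 0.1 was also the array on which duplicate spots disagreed most: 6.90% of probes with both spots well above background had spots at least 2-fold apart, against 0.394% to 0.751% on the other 7 arrays. The part of that noise in the AbcA3 folds was not tested.

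For SFTPC the direction of the BPA difference depended on the spot. Spot 1 was below ethanol at each BPA dose, at 0.72-fold, 0.59-fold and 0.70-fold for 0.1, 1 and 100. Spot 2 was above ethanol at each dose, at 1.27-fold, 1.78-fold and 1.70-fold. Their means, 0.96-fold, 1.03-fold and 1.09-fold, lay near 1 because the spots moved in opposite directions. On the ethanol array itself spot 1 read 2.26 times spot 2, whereas 0.394% of the 14231 probes with both spots well above background on that array had spots at least 2-fold apart.

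Against medium the spots of SFTPC differed in direction on 4 arrays and in size on others. They were 0.71-fold and 1.06-fold on BPA 0.1, 0.59-fold and 1.49-fold on BPA 1, 0.69-fold and 1.42-fold on BPA 100, and 0.57-fold and 1.55-fold on PFOA titled 0.1. Both spots lay below medium on methanol and PFOA titled 1, by different amounts. Methanol was 0.52-fold of medium by the mean of the spots, with 0.30-fold by spot 1 and 0.88-fold by spot 2, and PFOA titled 1 was 0.28-fold of medium by spot 1 and 0.93-fold by spot 2. Spot 1 read 1.91 times spot 2 on medium and between 0.58 and 0.71 times spot 2 on the other arrays of slide 1. Unscaled, spot 2 was nearly flat on slide 1, at 21.7 to 22.0. Medium and ethanol, on which spot 1 was far above spot 2, both lay in position 1 of their slide. Over the 12 pairs, the spots of SFTPC-1 pointed in opposite directions in 8 and those of AbcA3-1 in 5, all of these spots being well above background. SFTPC on PFOA titled 0.1 was an exception, with 1.89-fold and 1.77-fold of methanol by the 2 spots, though the unscaled ratio of their mean was 1.05.

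**Figure D3:**
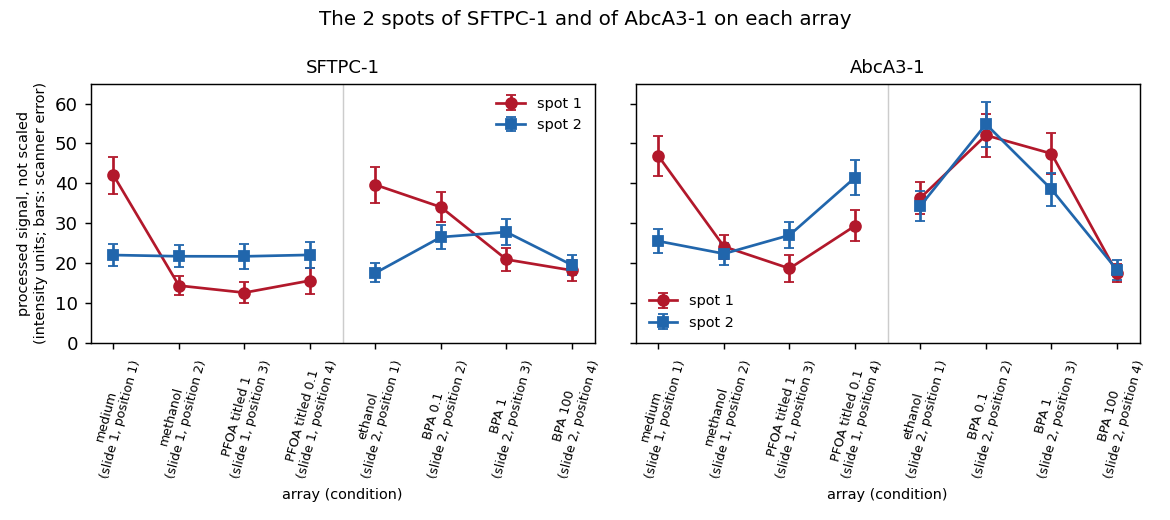
Processed signal (intensity units, not scaled) of spot 1 and spot 2 of SFTPC-1 and AbcA3-1 on the 8 arrays, in slide order, with the scanner's error estimate for each spot as bars. Spot 1 of SFTPC-1 is far above spot 2 on medium and ethanol, where the spots read 42.0 and 22.0, and 39.6 and 17.5.

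AbcA3-1 under BPA was more even between spots. Against ethanol, AbcA3-1 was 1.27-fold at BPA 0.1 (1.21-fold and 1.34-fold by spot), 1.36-fold at BPA 1 (1.47-fold and 1.26-fold) and 0.77-fold at BPA 100 (0.74-fold and 0.81-fold). Both spots thus lay above ethanol at the lower doses and below it at 100. AbcA3-2 was 1.42-fold at 0.1 (1.79-fold and 1.13-fold by spot) and 1.18-fold at 1 (1.40-fold and 1.00-fold), its spot 1 on ethanol not being well above background. AbcA3-3 was 1.18-fold at 0.1, with 0.99-fold by spot 2. AbcA3-2 on BPA 100 and AbcA3-3 on BPA 1 and BPA 100 were not well above background, and no direction is read there.

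Limma was fitted to the 19435 probes well above background on at least 2 arrays (79.6% of all), in 5 classes (medium, methanol, PFOA, ethanol, BPA), with p-values adjusted over all of them. SFTPC-1, the 3 AbcA3 probes and NKX2-1-2 entered, and SFTPA1-2 and SFTPB-1 did not. Limma used the values as read, also on arrays where a probe was not well above background, which were 2 for AbcA3-2, 4 for AbcA3-3 and 4 for NKX2-1-2. The spread is that between the arrays of 1 compound (3 residual degrees of freedom), which is assumed to hold for the classes of 1 array too. Those arrays carry different titled doses, so any effect of dose is part of that spread. For BPA over ethanol, 0 of the 5 member probes passed, where 0.00515% of all probes did, and 0 of the 5 had an unadjusted p under 0.05, against 3.09% of all. The median member difference was 0.14 log2 units, against 0.01 over all probes tested. NKX2-1-2 differed by 0.78 ± 0.54 (SE, 3 BPA arrays against 1, limma adjusted p = 0.941), with a 95% interval of -0.47 to 2.03. By spot 1 it was 0.96-fold of ethanol on BPA 0.1. No direction is read on BPA 1, where neither of its spots was well above background. Without BPA 100 the NKX2-1-2 difference was 0.33. SFTPC-1 differed by 0.04 ± 0.36 (limma adjusted p = 0.990; interval -0.79 to 0.86) and AbcA3-1 by 0.14 ± 0.53 (limma adjusted p = 0.975; interval -1.10 to 1.38). Each of the 3 intervals holds differences in both directions, so likeness to ethanol is not shown either.

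For PFOA over methanol, 0 of 5 passed (0% of all probes), and 0 of 5 had an unadjusted p under 0.05 (4.35% of all). All 5 probes lay above methanol, with a median of 0.47 log2 units against -0.01 over all probes. AbcA3-1 differed by 0.71 ± 0.57 (SE, 2 PFOA arrays against 1, limma adjusted p = 0.987; interval -0.61 to 2.02) and SFTPC-1 by 0.43 ± 0.38 (limma adjusted p = 0.987). Without PFOA titled 0.1 these were 0.03 and -0.02, so both rest on that array. For methanol over medium, which shares the methanol array, all 5 lay below medium, with a median of -0.74 against -0.00 over all probes, and 0 of 5 passed (0% of all). At an unadjusted p under 0.05 there were 0 of 5, against 2.93% of all. SFTPC-1 differed there by -0.95 ± 0.44 (limma adjusted p = 1) and NKX2-1-2 by -1.16 ± 0.66 as read (limma adjusted p = 1). Since NKX2-1-2 was not well above background on methanol, that fold is only a bound, at least 1.55-fold lower than medium.

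For ethanol over medium, where slide and vehicle cannot be told apart, 0 of 5 passed (0% of all), and 0 of 5 had an unadjusted p under 0.05, against 3.52% of all. The differences ran from -0.58 for NKX2-1-2 to 0.10 for AbcA3-1. The effects of BPA and PFOA were also set against each other, at doses that were not matched: 0 of 5 passed (0% of all), and 0 of 5 had an unadjusted p under 0.05, against 5.73% of all. The largest difference was that of AbcA3-1, -0.57 ± 0.78 (limma adjusted p = 0.932), and without PFOA titled 0.1 it was 0.11.

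**Figure D4:**
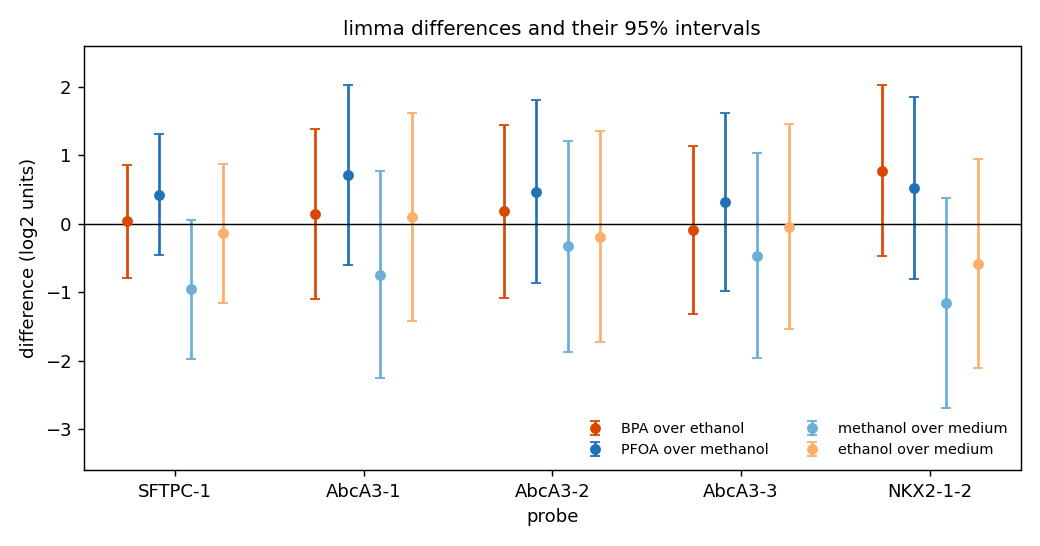
Limma differences (log2 units) with 95% intervals of the 5 tested probes for BPA over ethanol, PFOA over methanol, methanol over medium and ethanol over medium. Every interval crosses 0; the narrowest margin is SFTPC-1 for methanol over medium, whose interval is -1.97 to 0.06.

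Across the BPA doses, NKX2-1-2 had the steepest slope of the 5 tested probes. Its scaled level was -6.41 on ethanol and -6.14, -6.03 (not well above background) and -4.74 at 0.1, 1 and 100, a limma slope of 0.49 ± 0.12 log2 units per 10-fold titled dose (SE, 3 arrays, limma adjusted p = 0.651). Of the 5 member probes 0 passed for the slope (0% of all) and 1, NKX2-1-2, had an unadjusted p under 0.05, against 7.47% of all probes. Without BPA 100 the slope was 0.11. The slopes took the BPA titles as doses, although the treatment protocol gives no dose of 100, so no dose response is read from them. The AbcA3 probes had slopes of -0.26 ± 0.21, -0.24 ± 0.22 and -0.10 ± 0.22 for AbcA3-1, AbcA3-2 and AbcA3-3, and SFTPC-1 had 0.06 ± 0.15; none passed.

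The features most like SFTPC-1 and AbcA3-1 over the 8 arrays were sought among 17079 others well above background on every array, by the root mean square difference of log2 values centred on each feature's mean. For SFTPC-1 the closest were Contig-c855-1 (0.080 log2 units), Contig-c18689-1 (0.084) and Contig-c8083-1 (0.113), against a median of 0.44 over all features. For AbcA3-1 they were the single-read probe AM-32477 (0.133), Contig-c19615-1 (0.153) and the single-read probe AM-34780 (0.164), against a median of 0.55. These contigs and reads carry no gene name in the files. Among named genes, the water channel probe AQP5-2 ranked 18 for SFTPC-1 (0.158) and the mucin probe MUC1-1 ranked 66 (0.191), whereas AbcA3-1 ranked 1494 (0.323). The other probes of AQP5 and MUC1 were far less close: AQP5-1 ranked 5152 (0.395) and MUC1-2 ranked 7330 (0.422). Seen from AbcA3-1, the closest probe named for another gene was SFTPC-1, at rank 149 (0.323), with AQP5-2 next at rank 172 (0.330). The closest features were picked from 17079 candidates over 8 arrays and are given as descriptions, with no test.

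Of the other genes of lung surfactant and lamellar bodies listed for this work, 0 of 14 are named on the array, so SFTPD, NAPSA, LAMP3 and the like were not analysed here. Of 11 lung lineage factors 1 is named, FOXF1, a mesenchymal factor, whose better probe passed on 3 arrays. Of 8 airway and alveolar symbols listed, which may include more than 1 symbol of a gene, 4 are named. AQP5 and MUC1 passed on all 8 arrays and CC10, a secreted airway protein, on 7 by its better probe. PDPN, a marker of alveolar type 1 cells that some skin cells also express, passed on none. CDH5, 1 of 3 endothelial markers listed, passed on none, and none of 3 immune or 3 thyroid markers is named. Among all 8 other named genes, 4 passed on all arrays, 2 on some and 2 on none, against SFTPC and AbcA3 on all, NKX2-1 on some, and SFTPA1 and SFTPB on none. A probe's brightness also depends on its sequence, so levels are not compared between probes.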

How the data were processed

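RNA from 8 cultures was hybridised to 8 one-colour arrays, labelled from 0.5 µg of RNA per the labels' protocols. The deposited scanner files come from Agilent Feature Extraction 10.7.3.1, per the file headers. They give a processed signal per spot, an intensity, with yes/no flags; how background was removed is not given in the sources used here. The authors' deposited series table holds the same intensity on a linear scale times a constant (log2 ratio 19.92 to 19.94 on every array), uncentred, with column medians of 9.58e+07, 1.04e+08, 9.605e+07, 6.045e+07, 8.51e+07, 1.05e+08, 8.06e+07 and 5.92e+07 in the order medium, methanol, PFOA titled 1, PFOA titled 0.1, ethanol, BPA 0.1, 1 and 100.

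Control and outlier spots were left out, log2 signal was reduced by log2 of the array's 75th percentile, and spots were averaged. Tests used lmFit and eBayes of limma 3.58.1 (R 4.3.3) with Benjamini-Hochberg adjustment at 0.05, and were tested on simulated data. Simulated 2-fold changes were recovered for 1 of 50 features for BPA over ethanol and 0 of 50 for PFOA over methanol. At 4-fold, 29 of 50 were recovered in each. False calls, counted once over all simulated sizes together, were 4 for BPA and 8 for PFOA. A member that did not pass may therefore still differ by 2-fold. The number of arrays limits precision. Every member probe is named, with the 3 most similar features of each member detected on all arrays; the members, lists and tests were chosen with earlier results of these data known. Alternatives were normexp (on the median signal, since the files give no mean signal), other scalings, other filters and leaving arrays out. Of the 5 symbols, 3 (NKX2-1, SFTPB, SFTPC) were matched in the reference gene table, and no coordinates were used.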

Additional observations from a re-analysis of the deposited data

How the results depend on the processing

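None of the 5 tested probes passed in any of the 6 contrasts under the alternatives run. Of 337 refitted differences, 304 kept their direction and 33 changed it. The smallest adjusted p was 0.0652, for the NKX2-1-2 slope without 1 PFOA array. The slide block was not run, because the class terms already hold the slide. No paired analysis was possible because each condition has 1 array. The fit without PFOA titled 0.1 and BPA 100, the comparison without scaling and the use of single spots were chosen after the data were seen. The cause of the changes below was not tested.

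Over all probes, BPA over ethanol passed 1, and 0 under normexp and with no filter (0 to 1 when an array was left out). PFOA over methanol passed 0, and 1 with quantile normalization. The difference between the compounds and ethanol over medium each passed 0, and 1 under normexp. The BPA slope passed 0, and 8 under normexp (0 to 116 when an array was left out, the 116 without either PFOA array, which leaves 1 residual degree of freedom). Without PFOA titled 0.1 and BPA 100, also with 1 residual degree of freedom, the counts were 140, 167, 283, 182 and 199 for BPA, PFOA, their difference, methanol and ethanol, and the slope could not be fitted.

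For the difference between the compounds, the values turned without PFOA titled 0.1 (0.11, 0.46, 0.33 and 0.051 for AbcA3-1, AbcA3-2, AbcA3-3 and SFTPC-1) and without PFOA titled 0.1 and BPA 100 (0.36, 0.65, 0.37 and 0.0054), and for NKX2-1-2 under normexp (-0.30) and without BPA 100 (-0.19). With 1 array left out at a time, the lowest values were -1.25, -1.03, -1.15 and -0.84 for the 3 AbcA3 probes and SFTPC-1, and the highest for NKX2-1-2 was 0.51. For PFOA over methanol, AbcA3-2, AbcA3-3 and SFTPC-1 turned to -0.28, -0.42 and -0.015 in both fits without PFOA titled 0.1, and were at most 1.22, 1.06 and 0.87 with another array left out. For BPA over ethanol, SFTPC-1 turned to -0.032 with median scaling, -0.081 with quantile normalization and -0.0098 in both fits without BPA 100, AbcA3-3 to 0.10 under normexp and 0.038 without BPA 1, and AbcA3-1 to -0.011 without BPA 1; at the other end with 1 array left out were 0.084, -0.25 and 0.40. The BPA slopes of AbcA3-1, AbcA3-2 and AbcA3-3 turned to 0.057, 0.20 and 0.20 under normexp, that of AbcA3-1 to 0.096 without BPA 100 and that of AbcA3-3 to 0.085 without BPA 0.1, against -0.41 for AbcA3-1 without BPA 0.1 and -0.58 for AbcA3-3 without BPA 100. For ethanol over medium, AbcA3-2 turned to 0.034 under normexp and 0.010 with quantile normalization, AbcA3-3 to 0.055 with median scaling and 0.20 with quantile normalization, and SFTPC-1 to 0.030 with quantile normalization.

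The 4 member folds of at least 2-fold became 0 under normexp, which adds an offset of 50, more than most member signals. The part of that offset in the change was not tested. The folds became 2 without scaling, 8 by spot 1 alone and 5 by spot 2 alone. Spot 1 also gave lower values than medium on methanol and PFOA titled 1. They were 0.30-fold and 0.28-fold for SFTPC-1, and 0.46-fold and 0.37-fold for AbcA3-1. By spot 2 these were 0.88-fold, 0.93-fold, 0.78-fold and 1.00-fold. No share over all features is given for these settings. The 30 detections among 56 probe and array pairs became 47 with the weaker call and 22 where both spots had to pass. Probe means above the 95th percentile of negative controls gave 43. No share over all probes is given for these other calls. The values of AbcA3-2, AbcA3-3 and NKX2-1-2 on arrays where they were not well above background limit every fold that uses them, and SFTPA1-2 and SFTPB-1 allow none.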
